A study of Mus musculus with 11 samples.

Results

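Sterol and isoprenoid synthesis and sterol handling were followed through 30 genes of the mouse liver cancer line EC4, chosen by name for their known roles from the 55416 gene identifiers measured. All 30 had a mean of at least 10 normalized counts over the libraries and so were among the 12909 genes tested. They fall into 7 genes of the mevalonate arm, which builds farnesyl diphosphate from acetyl-CoA, 12 genes of the sterol arm, which turns farnesyl diphosphate into cholesterol, 5 genes that make other isoprenoids, and 6 genes that esterify, move or export sterols. EC4 cells labelled MYC high (genotype given as MYC on) or MYC low (MYC off) were given DMEM holding 10 or 200 µM methionine for 24 h, and polyadenylated RNA was sequenced. The 4 groups were MYC high at 10 µM (3 libraries), MYC low at 10 µM (3 libraries), MYC high at 200 µM (2 libraries, numbered 2 and 3) and MYC low at 200 µM (3 libraries). All cells came from this single line and had been grown in DMEM with 200 µM methionine. The labels name neither the agent that switches MYC nor separate cultures, so the p-values rest on the scatter among libraries, and this may be technical.

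Cholesterol and the other isoprenoids share a start. Acetyl-CoA is condensed to HMG-CoA, reduced to mevalonate, phosphorylated and joined into farnesyl diphosphate, from which squalene and then the sterols are made, while side branches lead to geranylgeranyl diphosphate, the ubiquinone tail and dolichol. In mammals the synthesis genes are transcribed under SREBP factors, which are released from the endoplasmic reticulum when its membranes hold little cholesterol, and the exporters Abca1 and Abcg1 are classic targets of the sterol-sensing LXR receptors. The liver is the main organ of cholesterol synthesis and clearance. Methionine is the source of S-adenosylmethionine, the methyl donor for phosphatidylcholine and for the methylation of ubiquinone precursors and prenylated proteins.

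The libraries held 10858936 to 13085689 reads, with 17395 to 18462 genes that had a read. The mouse gene Myc had 291, 366 and 350.3 normalized counts in the MYC high libraries and 320.0, 344 and 342 in the MYC low libraries at 10 µM. At 200 µM it had 2164 and 2014 (MYC high) and 1106, 1133 and 1168 (MYC low). Its level therefore separated the labels at 200 µM and not at 10 µM, and every MYC direction given here for 10 µM rests on the labels. Whether this mouse gene is the MYC that was switched was not tested. Of 7 hepatocyte markers none reached a mean of 10, and Alb, Serpina1a, Fgb and Cps1 were at 0 in all 11 libraries, so the liver label was not matched by markers of mature hepatocytes. Of 4 epithelial markers the keratins Krt8 and Krt18 passed 10 and Epcam was at 0. Their summed normalized counts were 11939 to 12441 in MYC high and 20705 to 21313 in MYC low libraries at 10 µM, against 8431 to 8824 and 10598 to 10783 at 200 µM. Of 5 fetal liver markers Afp passed 10, with Igf2 and Gpc3 at 0. These sums were 337 to 366 in MYC high and 118 to 146 in MYC low libraries at 10 µM, against 149.6 to 162 and 78.0 to 106 at 200 µM. The fibroblast and endothelial lists had no gene with a mean of 10. Of 5 macrophage markers Cd68 and Csf1r passed 10 and Ptprc was at 0 in every library. Summed over the 5 macrophage markers, the normalized counts were 873 to 906 in MYC high and 931 to 974 in MYC low libraries at 10 µM, against 263 to 286 in MYC high and 482 to 533 in MYC low libraries at 200 µM. All 3 sums were higher at 10 µM under both labels, as the synthesis genes were, and their part in the results was not tested. In bulk RNA fewer cells of a type and less RNA per cell cannot be told apart.

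At 10 µM methionine the synthesis genes stood higher than at 200 µM in both kinds of cell, and by more in MYC high cells. In MYC high cells 21 of the 30 genes were higher at 10 µM and 3 were lower, where 37.9% of all tested genes were higher and 37.9% lower (limma on log2 of normalized count plus 1, Benjamini-Hochberg adjusted p under 0.05). In MYC low cells 20 of the 30 genes were higher and 3 were lower, against 29.4% and 29.9% of all tested genes. The genes of both synthesis arms carried this, with 18 of 19 higher and none lower in each kind of cell, none being lower either at an unadjusted limma p under 0.05 or by edgeR or DESeq2. The median log2 difference over these 19 genes was 1.88 in MYC high cells, or 3.68-fold, and 0.81 in MYC low cells, or 1.75-fold, while the median over all tested genes was 0 in both. A difference that passed the test and was at least 2-fold was seen in MYC high cells upward for 13 of the 30 genes and downward for 1 (Abca1), where 13.0% and 9.18% of all tested genes passed. In MYC low cells it was seen upward for 6 of the 30 and downward for none (also none by edgeR, DESeq2 or unadjusted limma p under 0.05), where 3.39% and 2.17% of all tested genes passed. The exceptions to the rise were Hsd17b7 in MYC high cells and Lbr in MYC low cells.

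Summed over the 7 genes of the mevalonate arm, MYC high cells held 4164 ± 5.11 normalized counts at 10 µM (SD, n = 3), against 1041 ± 3.04 at 200 µM (n = 2). MYC low cells held 3526 ± 30.2 at 10 µM and 1664 ± 54.8 at 200 µM (n = 3 each). For the 12 genes of the sterol arm the sums were 12572 ± 179.9 at 10 µM and 5876 ± 177 at 200 µM in MYC high cells, and 8093 ± 48.2 and 5711 ± 35.8 in MYC low cells. At 10 µM both arms were thus higher in the MYC high libraries than in the MYC low ones, and at 200 µM the mevalonate sum was lower in the MYC high libraries. The sums of the other isoprenoid genes spanned a narrow range, with means of 2865 to 3362 over the 4 groups. For sterol handling the MYC high sums were 7824 ± 108 at 10 µM and 7989 ± 38.0 at 200 µM, and the MYC low sums were 9255 ± 99.8 and 10841 ± 166. Sums weigh each gene by its count, and long or abundant transcripts weigh most. Deviations of single genes can cancel in a sum. Hmgcs1 alone had an SD of 61.8 in MYC high cells at 10 µM, where the mevalonate sum had 5.11. The SD of a sum is therefore no measure of the precision of its genes.

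**Figure D1:**
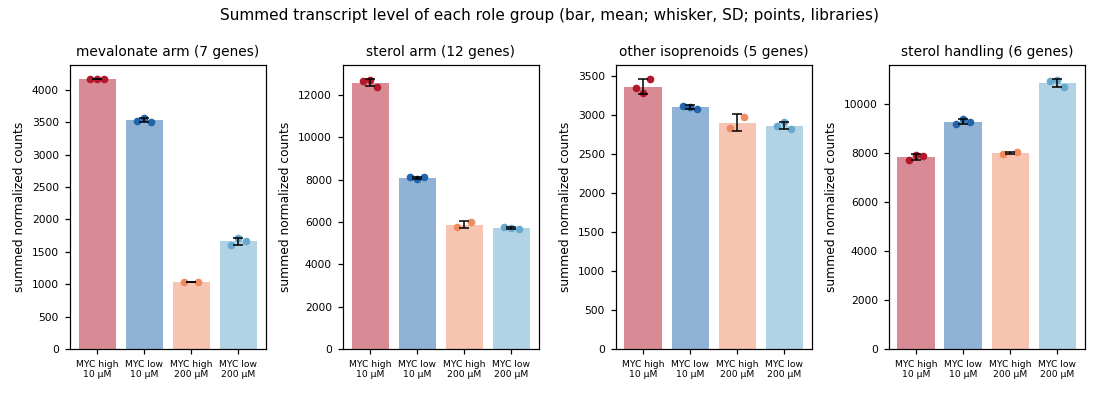
Summed normalized counts of the genes of each role (vertical axis) in each library (points) of the 4 groups, with group means as bars and the SD as whiskers. The mevalonate and sterol arms stand highest in MYC high cells at 10 µM methionine, at 4164 and 12572 on average.

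The test of the difference between the methionine responses, taken as the MYC high response less the MYC low response, passed upward for 18 of the 30 genes and downward for 4, against 31.0% and 29.4% of all tested genes, or 60.4% in either direction. It was at least 2-fold upward for 7 of the 30 and downward for 1, against 8.09% and 4.75% of all tested genes. In the synthesis arms 15 of 19 genes responded more strongly in MYC high cells, 1 less (Hsd17b7), and Mvd, Idi1 and Ebp did not pass the test. The median difference over the 19 was 0.69 on the log2 scale, against 0.01 over all tested genes. With all libraries, none of the 5 other isoprenoid genes passed with limma, by adjusted or unadjusted p under 0.05, or with edgeR or DESeq2. Without MYC high replicate 2 at 10 µM, Pdss2 passed upward with 0.47 (limma adjusted p = 0.0491). Without MYC high replicate 3 at 200 µM, which leaves 1 library in that group, its difference was 0.57, given as a size only. Among all 30 genes the highest group mean was that of MYC high cells at 10 µM for 19 and of MYC low cells at 10 µM for 6. It was that of MYC high cells at 200 µM for 2 and of MYC low cells at 200 µM for 3. The highest group was not counted over all tested genes, so these counts have no background share. The comparisons share libraries, and their counts are not independent of each other.

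**Figure D2:**
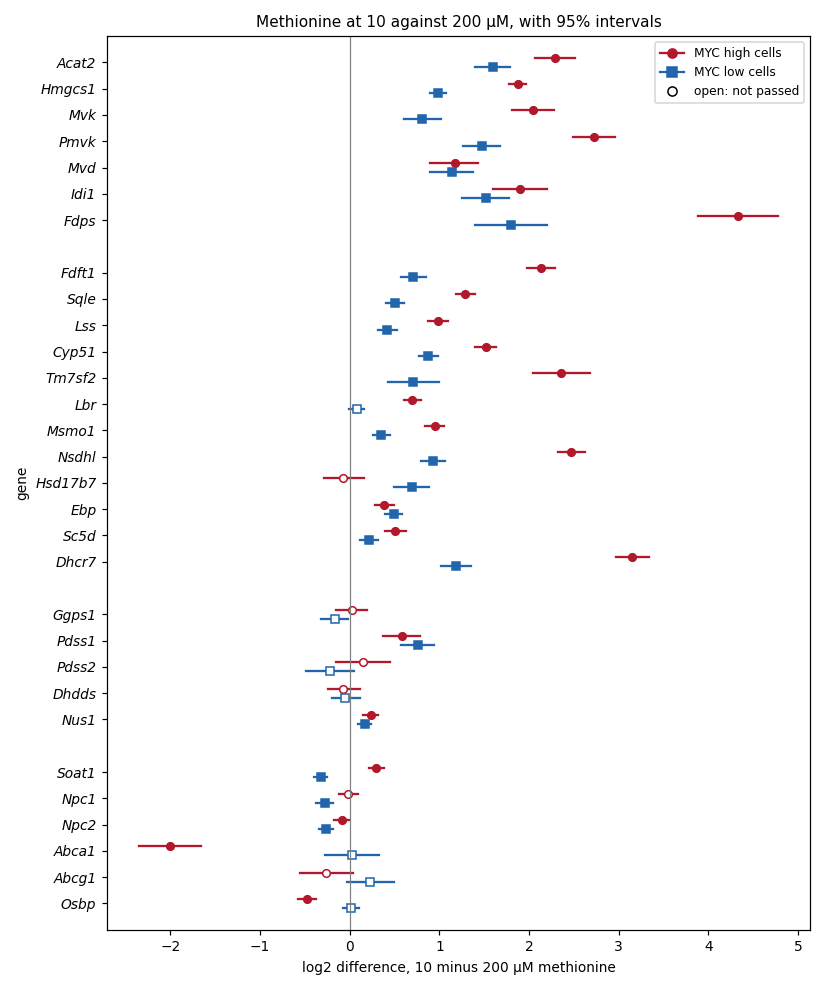
Log2 difference between 10 and 200 µM methionine (horizontal axis) for each gene (vertical axis) for either label, with 95% intervals. Filled points passed an adjusted p of 0.05, and the synthesis genes lie to the right of 0, except Hsd17b7 in MYC high cells at -0.07.

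Between MYC high and MYC low cells 14 of the 30 genes were called in the same direction in both media, 8 of them higher and 6 lower in MYC high cells. Fdps, Fdft1, Nsdhl and Dhcr7 were called in opposite directions, higher at 10 µM and lower at 200 µM. Joint calls over both media were not counted for all tested genes, so these counts have no background share. At 10 µM, 17 of the 30 genes were higher in the libraries labelled MYC high and 6 were lower, where 35.7% of all tested genes were higher and 35.8% lower. At 200 µM, 9 were higher and 14 lower, where the shares of all tested genes were 36.8% and 37.6%. When every library was scaled to the same total, the split at 200 µM was 5 higher and 15 lower for the 30 genes, and 4148 higher and 5438 lower for all genes, against 4746 and 4854 by the deposited scaling. In the synthesis arms 14 of 19 genes were higher and 2 lower (Hsd17b7 and Ebp) in MYC high cells at 10 µM, with a median log2 difference of 0.58. At 200 µM 6 of 19 were higher and 9 lower, with a median of -0.16. The median over all tested genes was 0 in both media. At least 2-fold differences were upward for 5 of the 30 genes and downward for 3 at 10 µM (6.41% and 7.92% of all tested genes), and upward for 1 and downward for 8 at 200 µM (6.79% and 12.1% of all tested genes).

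**Figure D3:**
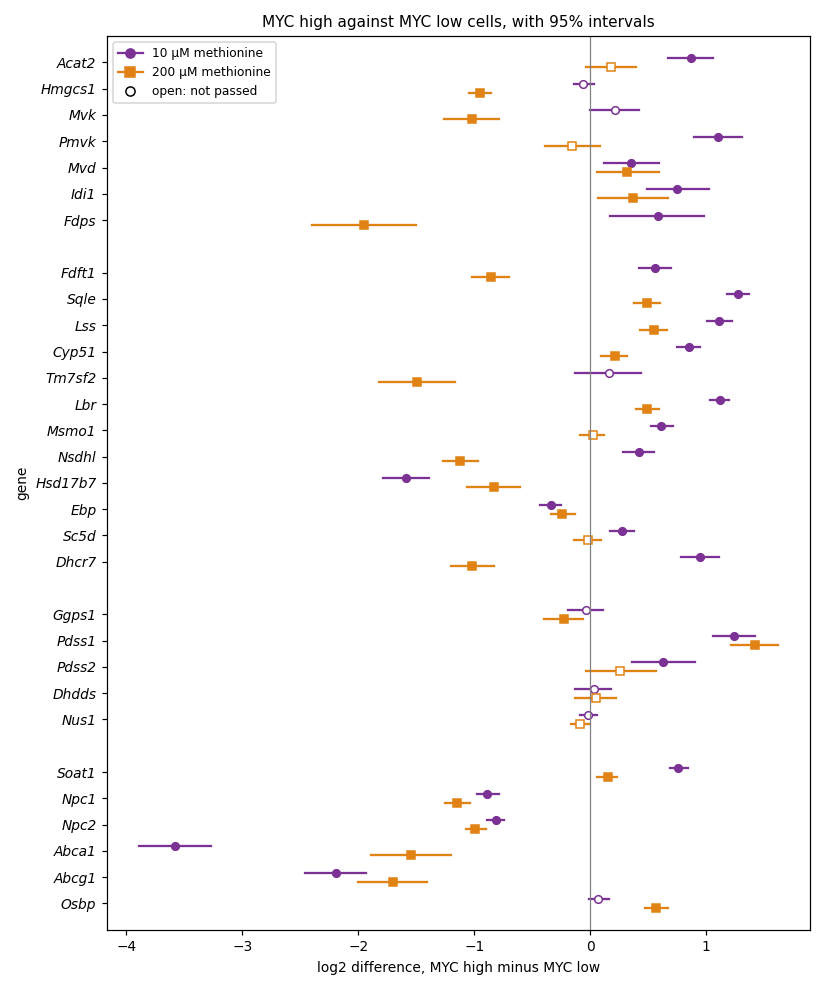
Log2 difference between MYC high and MYC low cells (horizontal axis) for each gene (vertical axis) at 10 and at 200 µM methionine, with 95% intervals. Fdps, Nsdhl and Dhcr7 lie right of 0 at 10 µM and left of 0 at 200 µM, while Abca1 and Abcg1 lie left of 0 in both.

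Promoter sequence was read for the members in the RefSeq table of mouse promoters (GRCm38.p6, 250 bases before to 50 bases after the start), where 25 of the 30 had an entry, and Fdps, Fdft1, Sqle, Npc1 and Abcg1 had none. Motifs were searched on both strands: TCACNCCAC, the core of a sterol regulatory element bound by SREBP, CCAAT, the box bound by NF-Y, and CACGTG, the E-box bound by MYC with MAX among others. Where a gene had several windows, as Dhcr7 (3) and Pmvk (2) did, a match in any of them counted, for all genes alike. TCACNCCAC was found in 1 of the 25, Hmgcs1, and in 1.44% of the promoters of all 27025 genes in the table. CCAAT was found in 21 of the 25, or 84%, against 41.1% of all genes and 43.2% of the tested genes in the table, and was not found in Acat2, Pdss1, Pdss2 and Abca1. CACGTG was found in 5 of the 25, or 20%, against 8.09% of all genes and 12.1% of the tested genes, and these were Hsd17b7, Sc5d, Dhcr7 (in 1 of its windows, which is not the one with its CCAAT), Dhdds and Abca1. A match is a stretch of letters in this window and shows no binding.

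The 6 promoters shown are those of Hmgcs1, the only one with the sterol core, of Nsdhl and Tm7sf2, which were lower in MYC high cells at 200 µM, of Lbr, which was higher there, and of Hsd17b7 and Abca1, which did not rise at 10 µM in MYC high cells. They lie at chr13:119690101-119690400 (Hmgcs1, plus strand), chrX:72918271-72918570 (Nsdhl, plus strand), chr19:6067801-6068100 (Tm7sf2, minus strand), chr1:181842352-181842651 (Lbr, minus strand), chr1:169969156-169969455 (Hsd17b7, minus strand) and chr4:53159846-53160145 (Abca1, minus strand) of GRCm38.p6. Each is written 5′ to 3′ on the strand of its gene, with matches to the 3 motifs, on either strand, in capitals.
Hmgcs1: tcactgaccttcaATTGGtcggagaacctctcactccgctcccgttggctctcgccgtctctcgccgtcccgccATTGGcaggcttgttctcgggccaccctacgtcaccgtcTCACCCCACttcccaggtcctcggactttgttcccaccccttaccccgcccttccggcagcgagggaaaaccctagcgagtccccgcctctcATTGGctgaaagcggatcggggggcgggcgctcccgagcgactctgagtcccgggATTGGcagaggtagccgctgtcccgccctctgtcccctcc
Nsdhl: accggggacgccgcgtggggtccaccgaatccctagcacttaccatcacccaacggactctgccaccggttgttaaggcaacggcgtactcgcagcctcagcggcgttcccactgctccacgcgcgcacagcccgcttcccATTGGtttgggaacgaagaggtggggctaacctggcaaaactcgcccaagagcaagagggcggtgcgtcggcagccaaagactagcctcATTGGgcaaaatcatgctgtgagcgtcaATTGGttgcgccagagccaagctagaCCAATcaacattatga
Tm7sf2: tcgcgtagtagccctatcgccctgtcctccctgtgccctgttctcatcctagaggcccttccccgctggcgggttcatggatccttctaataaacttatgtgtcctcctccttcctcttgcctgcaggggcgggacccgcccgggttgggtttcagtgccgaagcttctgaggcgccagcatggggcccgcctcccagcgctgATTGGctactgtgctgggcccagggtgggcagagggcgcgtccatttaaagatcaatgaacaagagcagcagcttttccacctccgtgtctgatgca
Lbr: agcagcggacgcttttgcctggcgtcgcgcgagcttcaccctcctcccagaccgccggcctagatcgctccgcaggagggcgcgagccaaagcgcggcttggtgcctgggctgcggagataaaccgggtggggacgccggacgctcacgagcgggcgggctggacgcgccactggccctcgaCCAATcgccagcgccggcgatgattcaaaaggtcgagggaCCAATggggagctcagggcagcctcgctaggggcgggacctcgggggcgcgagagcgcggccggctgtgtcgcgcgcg
Hsd17b7: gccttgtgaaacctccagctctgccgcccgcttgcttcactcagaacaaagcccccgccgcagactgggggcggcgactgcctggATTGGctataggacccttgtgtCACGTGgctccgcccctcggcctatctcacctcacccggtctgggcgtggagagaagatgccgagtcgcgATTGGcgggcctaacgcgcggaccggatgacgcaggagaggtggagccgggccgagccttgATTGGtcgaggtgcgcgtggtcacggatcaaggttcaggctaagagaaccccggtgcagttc
Abca1: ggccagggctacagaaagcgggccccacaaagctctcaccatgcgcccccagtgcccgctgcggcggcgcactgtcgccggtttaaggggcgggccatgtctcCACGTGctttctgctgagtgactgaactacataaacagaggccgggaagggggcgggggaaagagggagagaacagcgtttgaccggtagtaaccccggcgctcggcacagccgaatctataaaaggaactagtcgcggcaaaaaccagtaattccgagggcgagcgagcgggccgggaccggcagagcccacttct
In Hmgcs1 the sterol core begins 137 bases before the start, among 4 CCAAT matches, all on the opposite strand. Of the promoters shown, Hsd17b7 and Abca1 hold the E-box, and Hmgcs1, Nsdhl, Tm7sf2 and Lbr do not. Not shown are Dhcr7 and Sc5d, which also hold it and rose at 10 µM in MYC high cells (log2 differences 3.15 and 0.51). Dhdds holds it too and passed no test.

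Of the mevalonate arm, Fdps, the synthase that joins isoprene units into farnesyl diphosphate, differed most by methionine. In MYC high cells it had 129, 142 and 113 normalized counts at 10 µM, against 4.57 and 6.37 at 200 µM. MYC low cells had 85.0, 87.3 and 83.8 at 10 µM, against 21.5, 21.5 and 29.0 at 200 µM. No library of 1 medium reached into the other, and at 200 µM the MYC high libraries lay below the MYC low ones. The log2 difference by methionine was 4.33 in MYC high cells (95% interval 3.88 to 4.78, limma adjusted p = 1.23e-19) and 1.80 in MYC low cells (adjusted p = 5.37e-10 by limma). The responses differed by 2.53 (limma adjusted p = 2.88e-09). The values of the MYC high libraries at 200 µM rest on 4 and 6 reads, so that the fold depends on the pseudocount: the log2 difference lay between 3.67 and 4.54 over the alternatives. At 10 µM the MYC difference of Fdps was 0.58 (limma adjusted p = 0.00969), a call that ended without MYC high replicate 2 at 10 µM (limma adjusted p = 0.0543). Fdps also has stretches of at least 97% identity to 5 other genes, the longest 1062 bases. Of these Gm3571 had means of 20.3 and 2.24 normalized counts in MYC high cells at 10 and 200 µM, and 14.3 and 3.61 in MYC low cells. Reads that match more than 1 of these genes could have been assigned to any of them or left uncounted, which was not tested.

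Hmgcs1, the cytosolic HMG-CoA synthase and the gene with the sterol core above, was per kilobase of exon the most abundant of the 30 in MYC high cells at 10 µM, at 491 normalized counts per kilobase. It had 2275, 2189 and 2310 normalized counts in MYC high and 2299, 2397 and 2352 in MYC low libraries at 10 µM, against 614 and 612 in MYC high and 1120, 1266 and 1179 in MYC low libraries at 200 µM. The labels overlapped in part at 10 µM (log2 difference -0.06, limma adjusted p = 0.223). With libraries scaled to equal totals MYC high was called lower there (-0.12, limma adjusted p = 0.0160). At 200 µM the labels were fully apart, and MYC high was lower by a log2 difference of -0.95 (limma adjusted p = 4.66e-20). The overlapping transcript Gm48342, annotated on the opposite strand, shares exon sequence with Hmgcs1 and had means of 719 and 183 in MYC high cells at 10 and 200 µM, and 749 and 398 in MYC low cells. Reads of the pair cannot be told apart, because no source used here gives the strand setting of the counting.

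Mvk, mevalonate kinase, followed Hmgcs1 in its order of groups at 200 µM. It had 305, 289 and 257 normalized counts in MYC high libraries at 10 µM, against 70.8 and 64.7 at 200 µM, and 247, 239 and 246 in MYC low libraries at 10 µM, against 158, 124 and 136 at 200 µM. On the log2 scale its methionine difference was 2.05 with MYC high and 0.81 with MYC low, and the responses differed by 1.24 (limma adjusted p = 1.31e-08). Pmvk, phosphomevalonate kinase, had 462, 501 and 457 normalized counts in MYC high libraries at 10 µM, against 80.0 and 62.6 at 200 µM, and 221, 225 and 215 in MYC low libraries at 10 µM, against 79.0, 83.9 and 74.5 at 200 µM. At 200 µM its labels overlapped, and the MYC high libraries stood apart above the others at 10 µM. The responses of Pmvk differed by 1.26 on the log2 scale (limma adjusted p = 9.53e-09).

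Acat2, which condenses acetyl-CoA, showed the same form as Pmvk, with 502, 496 and 484 normalized counts in MYC high and 276, 272 and 263 in MYC low libraries at 10 µM, against 90.3 and 111 in MYC high and 95.6, 81.9 and 89.0 in MYC low libraries at 200 µM. Acat2 has stretches of at least 97% identity to Acat3 and Tcp1, the longest 1477 bases. In MYC high cells at 10 and 200 µM the means were 1007 and 641 for Acat3, and 5525 and 3494 for Tcp1. In MYC low cells they were 489 and 413 for Acat3, and 2745 and 2237 for Tcp1. How reads shared by these genes were counted is uncertain. Mvd, the mevalonate diphosphate decarboxylase, and Idi1, the isopentenyl diphosphate isomerase, rose at 10 µM by log2 differences of 1.17 and 1.90 in MYC high cells, and of 1.14 and 1.52 in MYC low cells. Their responses in the 2 kinds of cell differed by 0.03 (95% interval -0.32 to 0.38) and 0.38 (-0.01 to 0.78), which did not pass the test. Without MYC low replicate 1 at 200 µM the difference for Idi1 was 0.58 and passed (limma adjusted p = 0.00492). Mvd and Idi1 were higher in MYC high cells at 200 µM by 0.32 and 0.37 with limma. Neither call held with edgeR (adjusted p = 0.0636 for Mvd and 0.0818 for Idi1) or DESeq2 (adjusted p = 0.0812 and 0.0917). By limma the call for Idi1 also ended without MYC high replicate 2 (adjusted p = 0.0952) or MYC low replicate 1 (0.243) at 200 µM, and that for Mvd without MYC high replicate 3 (0.146) or MYC low replicate 2 (0.129). At 10 µM both were higher in MYC high cells, by 0.35 for Mvd and 0.75 for Idi1, and the call for Mvd ended without MYC high replicate 3 (limma adjusted p = 0.0555).

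**Figure D4:**
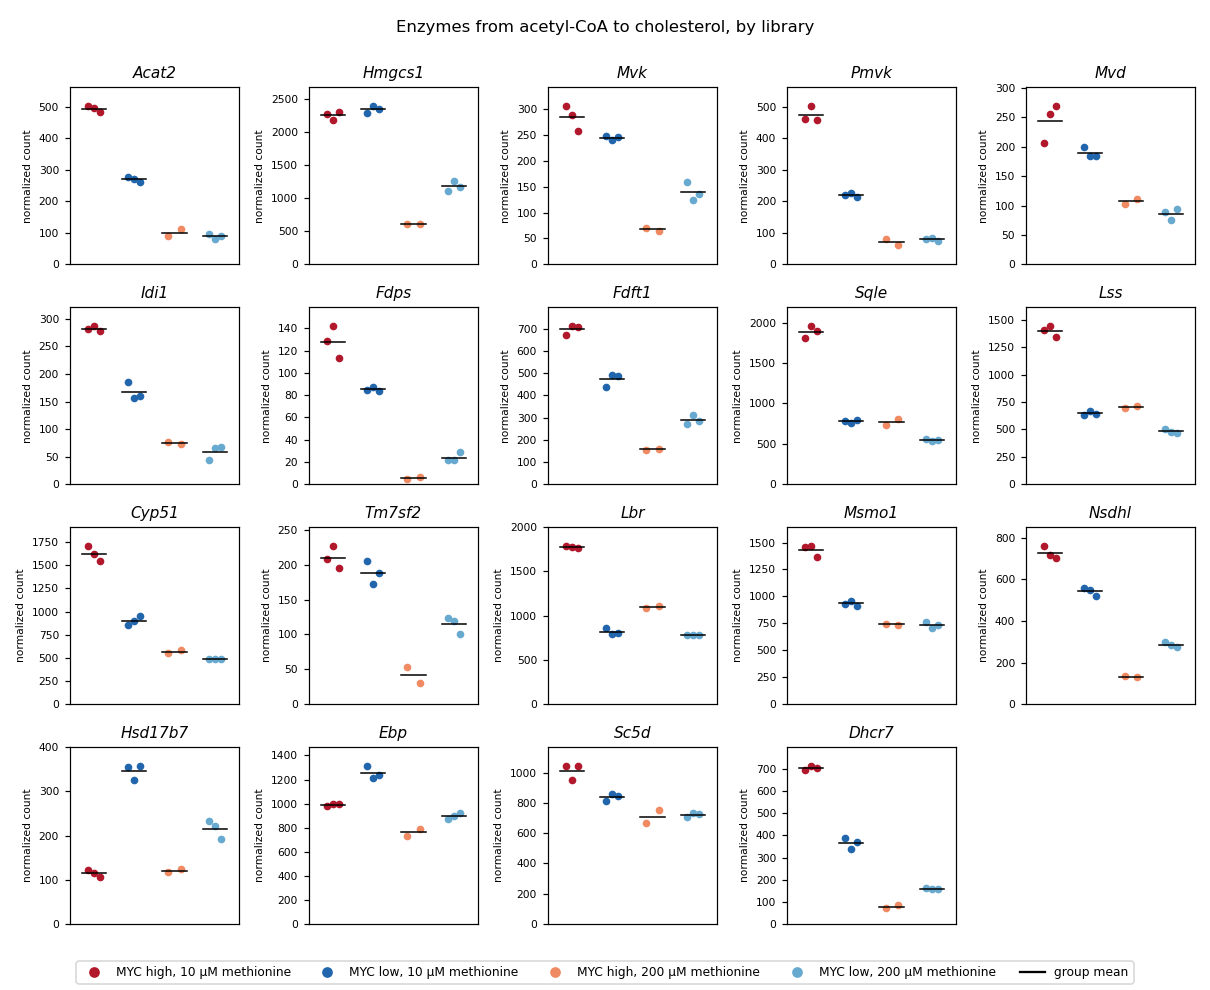
Normalized counts (vertical axes, each from 0) of the 19 genes of the mevalonate and sterol arms in each library (points), with group means as lines, by group from MYC high at 10 µM to MYC low at 200 µM. Most genes are highest in MYC high cells at 10 µM, and Hsd17b7 is highest in MYC low cells at 10 µM.

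In the sterol arm the gene with the largest methionine difference was Dhcr7, the reductase that makes cholesterol from 7-dehydrocholesterol. It had 697, 714 and 704 normalized counts in MYC high libraries at 10 µM, against 73.1 and 83.8 at 200 µM, and 387, 338 and 371 in MYC low libraries at 10 µM, against 163, 157 and 159 at 200 µM. All 4 groups were apart, with the MYC high libraries the highest of all at 10 µM and the lowest of all at 200 µM. The methionine difference was 3.15 on the log2 scale in MYC high cells (8.90-fold, limma adjusted p = 1.90e-27) and 1.19 in MYC low cells (2.28-fold, limma adjusted p = 2.05e-15). The MYC difference was 0.95 at 10 µM and -1.02 at 200 µM.

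Nsdhl, a dehydrogenase in the removal of methyl groups from early sterols, and Fdft1, squalene synthase and the entry to the sterol arm, had the same order. Nsdhl had 760.0, 719 and 703 normalized counts in MYC high and 560.4, 548 and 521 in MYC low libraries at 10 µM, against 133 and 128 in MYC high and 297, 284 and 275 in MYC low libraries at 200 µM. Fdft1 had 672, 711 and 706 in MYC high and 438, 491 and 485 in MYC low libraries at 10 µM, against 155 and 160.2 in MYC high and 271, 310.1 and 284 in MYC low libraries at 200 µM. For both genes MYC high was above MYC low in every library at 10 µM and below it in every library at 200 µM. The responses differed by 1.54 for Nsdhl (limma adjusted p = 6.68e-16) and 1.43 for Fdft1 (limma adjusted p = 2.11e-14). Fdft1 overlaps the exons of Ctsb on the opposite strand. Ctsb had means of 5249 and 8616 in MYC high and of 10965 and 13301 in MYC low cells at 10 and 200 µM. By methionine Ctsb thus went the other way to Fdft1 under both labels. By label Ctsb was lower in MYC high cells in both media, the direction of Fdft1 at 200 µM and not at 10 µM. The part of this overlap in the Fdft1 counts was not tested.

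Tm7sf2 and Lbr both encode sterol reductases that can act at the same step, Lbr being also the lamin B receptor of the inner nuclear membrane. Tm7sf2 had 208, 227 and 195 normalized counts in MYC high and 205, 173 and 188 in MYC low libraries at 10 µM, against 53.7 and 29.7 in MYC high and 124, 119.7 and 101 in MYC low libraries at 200 µM. Lbr had 1787, 1773 and 1769 in MYC high and 855, 796 and 809 in MYC low libraries at 10 µM, against 1083 and 1104 in MYC high and 776, 779 and 777 in MYC low libraries at 200 µM. The labels overlapped for Tm7sf2 at 10 µM and were apart at 200 µM, where MYC high was the lower. For Lbr, MYC high was above MYC low in every library of either medium. The MYC difference at 200 µM was -1.49 for Tm7sf2 (limma adjusted p = 1.32e-10) and 0.49 for Lbr (limma adjusted p = 1.56e-11). Lbr differed by methionine in MYC low cells by 0.08 (limma adjusted p = 0.128), and by 0.70 in MYC high cells. The 2 MYC high libraries of Tm7sf2 at 200 µM differed from each other. Its log2 difference by methionine in MYC high cells lay between 1.95 and 2.78 over the alternatives, with 2.36 as fitted. Tm7sf2 also overlaps exons of Vps51 on the same strand. Vps51 had means of 541 and 450.4 in MYC high and of 573 and 480.3 in MYC low cells at 10 and 200 µM. Lbr overlaps Dnah14, which had means of 209 and 144 in MYC high and of 94.2 and 90.8 in MYC low cells at 10 and 200 µM.

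Sqle, the squalene epoxidase, and Lss, the lanosterol synthase that closes the sterol rings, were higher in MYC high cells in both media. Sqle had 1814, 1958 and 1897 normalized counts in MYC high and 785, 764 and 797 in MYC low libraries at 10 µM, against 739 and 804 in MYC high and 557, 539 and 553 in MYC low libraries at 200 µM. Lss had 1408, 1441 and 1340 in MYC high and 629, 666 and 640.2 in MYC low libraries at 10 µM, against 699 and 709.7 in MYC high and 504, 477 and 463 in MYC low libraries at 200 µM. In neither gene did the labels overlap within a medium. The MYC difference for Sqle was 1.27 at 10 µM and 0.49 at 200 µM, and for Lss 1.11 and 0.55, and the methionine responses differed between the labels by 0.78 and 0.56 (limma adjusted p = 6.06e-12 and 5.71e-08). Cyp51, the lanosterol demethylase, had 1709, 1622 and 1544 in MYC high and 849.7, 903 and 951 in MYC low libraries at 10 µM, against 552 and 582 in MYC high and 488, 491 and 493 in MYC low libraries at 200 µM. Its MYC difference of 0.21 at 200 µM did not pass when libraries were scaled to equal totals (0.12, limma adjusted p = 0.0531).

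Hsd17b7, a ketosteroid reductase of the demethylation steps whose promoter with its E-box is printed above, did not share the methionine rise of the arm in MYC high cells and was lower in MYC high cells at 10 µM. It had 123, 115 and 106 normalized counts in MYC high and 356, 326 and 358 in MYC low libraries at 10 µM, against 117 and 124 in MYC high and 234, 221 and 193 in MYC low libraries at 200 µM. The MYC high libraries of both media overlapped and lay below every MYC low library. By methionine it differed by -0.07 in MYC high cells (95% interval -0.29 to 0.16, limma adjusted p = 0.592) and by 0.69 in MYC low cells (limma adjusted p = 1.80e-07), and the responses differed by -0.75 (limma adjusted p = 3.86e-05). Its MYC difference was -1.59 at 10 µM and -0.83 at 200 µM. Ebp, a sterol isomerase, was also lower in MYC high cells in both media, by -0.34 at 10 µM and -0.24 at 200 µM, and was higher at 10 µM in both kinds of cell, by 0.38 in MYC high and 0.49 in MYC low. The difference of its responses, -0.10 (95% interval -0.25 to 0.04), did not pass. Msmo1, a methylsterol oxidase, and Sc5d, a sterol desaturase, had methionine differences of 0.95 and 0.51 in MYC high cells, and 0.35 and 0.22 in MYC low cells. Their labels differed at 10 µM by 0.61 and 0.27 and not past the test at 200 µM, with differences of 0.02 (95% interval -0.09 to 0.12) and -0.02 (-0.14 to 0.09).

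Of the side branches, Pdss1, a subunit of the enzyme that makes the ubiquinone tail, set the labels apart most. It had 447, 378 and 428 normalized counts in MYC high and 175, 177 and 175 in MYC low libraries at 10 µM, against 287 and 271 in MYC high and 105, 97.2 and 108 in MYC low libraries at 200 µM. The MYC difference was 1.24 at 10 µM (limma adjusted p = 5.84e-15) and 1.42 at 200 µM (limma adjusted p = 2.79e-15). At 10 µM it rose by 0.58 with MYC high and by 0.76 with MYC low, and the difference of these, -0.18 (95% interval -0.45 to 0.10), did not pass. Pdss1 overlaps A130006I12Rik and Abi1 on the opposite strand. A130006I12Rik had means of 57.9 and 40.4 in MYC high and of 18.2 and 16.1 in MYC low cells at 10 and 200 µM. Abi1 had means of 1353 and 2037 in MYC high and of 1854 and 2154 in MYC low cells, the other direction to Pdss1 by label and by methionine. Pdss2, the partner subunit of Pdss1, was higher in MYC high cells at 10 µM by 0.63 (limma adjusted p = 6.55e-05). By methionine Pdss2 differed by 0.15 with MYC high and by -0.22 with MYC low, neither past the test. Nus1, a subunit of the dolichol-forming cis-prenyltransferase, rose at 10 µM by 0.24 with MYC high and by 0.17 with MYC low. Its partner Dhdds passed no test, with log2 differences of -0.07 to 0.05 over the 4 comparisons of media and labels. Ggps1, the geranylgeranyl diphosphate synthase, was lower in MYC high cells at 200 µM by a log2 difference of -0.23 (limma adjusted p = 0.0134), a call that ended without MYC high replicate 2 or without MYC low replicate 2 at 200 µM (adjusted p = 0.162 and 0.138).

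**Figure D5:**
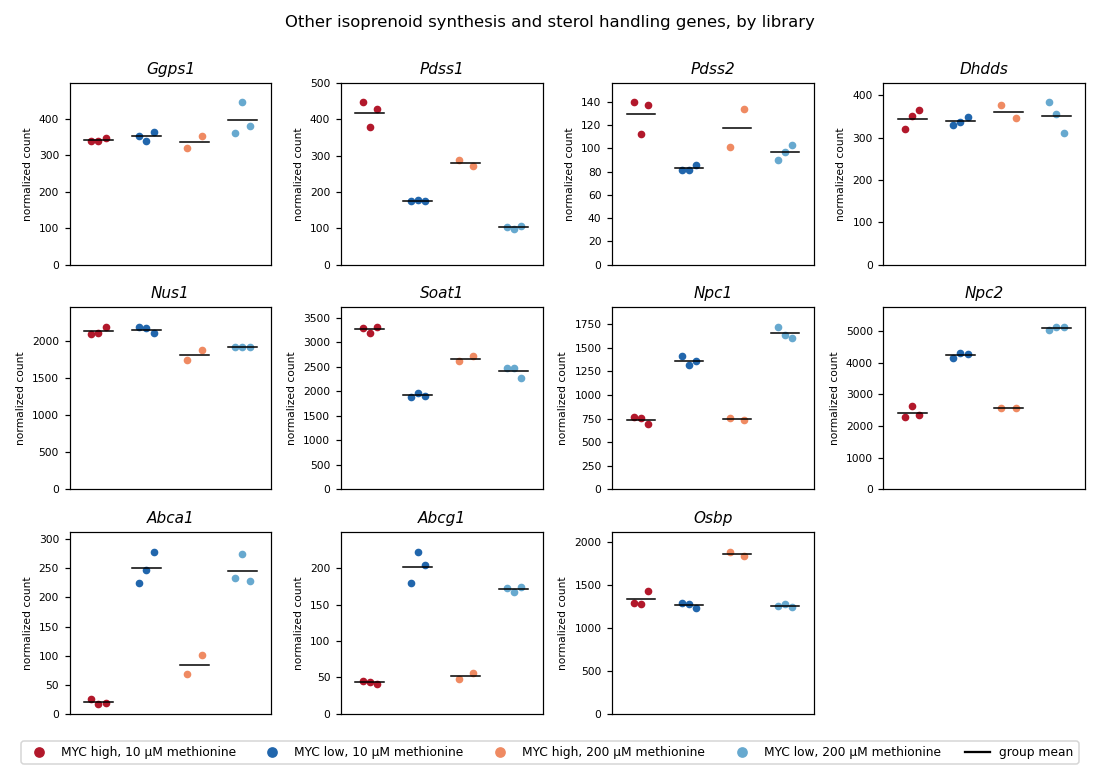
Normalized counts (vertical axes, each from 0) of the other isoprenoid and sterol handling genes in each library (points), with group means as lines. At 10 µM Abca1 lies between 16.2 and 25.5 with MYC high and between 225 and 279 with MYC low.

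Of the genes that handle sterols, the exporters stood lowest in MYC high cells. Abca1, which passes cholesterol to lipid-poor apolipoproteins and whose promoter above holds no CCAAT, had 25.5, 16.2 and 19.2 normalized counts in MYC high libraries at 10 µM, against 68.6 and 101 at 200 µM, and 225, 248 and 279 in MYC low libraries at 10 µM, against 233, 274 and 229 at 200 µM. The MYC high libraries were below every MYC low library, and lower at 10 µM than at 200 µM, while the MYC low libraries of both media overlapped. The MYC difference was -3.58 at 10 µM (95% interval -3.89 to -3.27, 11.9-fold lower, limma adjusted p = 3.39e-22) and -1.55 at 200 µM (limma adjusted p = 2.28e-10). The methionine difference was -2.00 in MYC high cells (limma adjusted p = 2.57e-13) and 0.03 in MYC low cells (limma adjusted p = 0.886), and these differed by -2.03 (limma adjusted p = 8.75e-10). Abcg1, which exports cholesterol to lipoprotein particles, had 44.8, 43.5 and 41.5 normalized counts in MYC high and 179.9, 223 and 204 in MYC low libraries at 10 µM, against 48.0 and 56.2 in MYC high and 173, 168 and 174 in MYC low libraries at 200 µM. Again no MYC high library reached a MYC low one, with MYC differences of -2.19 at 10 µM and -1.70 at 200 µM. Its methionine responses of -0.26 (MYC high) and 0.23 (MYC low) did not pass with limma, although the MYC low response did with edgeR (adjusted p = 0.0389). Their difference of -0.49 (limma adjusted p = 0.0289) was lost with edgeR (adjusted p = 0.0592) and DESeq2 (adjusted p = 0.0886), and with limma without any of 4 libraries: MYC low replicate 2 (adjusted p = 0.0935) or 3 (0.0559) at 10 µM, MYC high replicate 3 (0.132) or MYC low replicate 2 (0.0548) at 200 µM.

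Npc1 and Npc2, which carry cholesterol out of lysosomes, were lower in MYC high cells in both media. Npc2 had 2291, 2627 and 2344 normalized counts in MYC high and 4166, 4311 and 4268 in MYC low libraries at 10 µM, against 2588 and 2567 in MYC high and 5047, 5135 and 5137 in MYC low libraries at 200 µM. Npc1 had 765, 754 and 691 in MYC high and 1407, 1317 and 1358 in MYC low libraries at 10 µM, against 752 and 739 in MYC high and 1720, 1638 and 1604 in MYC low libraries at 200 µM. In MYC low cells both were lower at 10 µM, by -0.28 for Npc1 (limma adjusted p = 2.03e-06) and -0.27 for Npc2 (limma adjusted p = 9.29e-08). In MYC high cells the methionine difference of Npc2 was -0.09 (limma adjusted p = 0.0402) and was lost with edgeR (adjusted p = 0.113) and DESeq2 (adjusted p = 0.0776), and without any of 5 libraries (limma adjusted p = 0.0513 to 0.252).

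Soat1, which esterifies cholesterol for storage, had 3285, 3197 and 3313 normalized counts in MYC high and 1889, 1973 and 1911 in MYC low libraries at 10 µM, against 2614 and 2714 in MYC high and 2483, 2467 and 2268 in MYC low libraries at 200 µM. Lowered methionine thus set its labels further apart, with a rise of 0.29 in MYC high cells (limma adjusted p = 5.40e-08) and a fall to a log2 difference of -0.32 in MYC low cells (limma adjusted p = 1.40e-09). The responses differed by 0.61 (limma adjusted p = 4.32e-12), and the small MYC difference of 0.15 at 200 µM was lost when libraries were scaled to equal totals (limma adjusted p = 0.171). Osbp, a carrier that exchanges sterol for phosphoinositide between endoplasmic reticulum and Golgi, had 1295, 1282 and 1436 normalized counts in MYC high libraries at 10 µM, against 1892 and 1839 at 200 µM. MYC low libraries had 1287, 1282 and 1238 at 10 µM, against 1253, 1280 and 1240 at 200 µM. The MYC high libraries at 200 µM thus lay above all the others, which overlapped, and the methionine responses differed by -0.49 (limma adjusted p = 2.61e-08).

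Outside the 30 genes, lists of related genes were counted in the same fit. Over all tested genes the shares higher and lower by methionine were 37.9% and 37.9% in MYC high cells, and 29.4% and 29.9% in MYC low cells. By label they were 35.7% and 35.8% at 10 µM, and 36.8% and 37.6% at 200 µM. The median log2 difference was 0 in each. Of 15 tested genes of SREBP and LXR control and sterol uptake, 12 were higher and 1 lower at 10 µM in MYC high cells, and 11 were higher and 2 lower in MYC low cells, with median log2 differences of 1.02 and 0.55. Stard4, a cytosolic sterol carrier, had means of 532 and 54.9 normalized counts in MYC high cells at 10 and 200 µM, a log2 difference of 3.26. Srebf1, an SREBP gene, had means of 3070 and 1088 in MYC low cells at 10 and 200 µM, a log2 difference of 1.5. Between the labels 8 of the 15 were higher and 6 lower in MYC high cells at 10 µM, and 4 were higher and 9 lower at 200 µM, with medians of 0.45 and -0.73. Stard4 had the largest difference at 10 µM, with 2.37. Mylip, a ubiquitin ligase and LXR target, and Nr1h3, an LXR receptor, were lower in MYC high cells in both media, by -1.79 and -1.40 at 10 µM, and by -1.46 and -1.03 at 200 µM.

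Of 25 genes of prenylation, ubiquinone and dolichol, 10 were higher and 6 lower at 10 µM in MYC high cells, and 6 were higher and 10 lower in MYC low cells, with median log2 differences of 0.12 and -0.03. The counts higher in MYC high cells, and those by label at 200 µM below, lay close to the shares over all genes. The largest in MYC high cells were Coq3 (1.62), a methyltransferase of ubiquinone synthesis, Coq8b (1.47), a kinase-like ubiquinone factor, and Pggt1b (-1.33), a subunit of an enzyme that attaches geranylgeranyl groups to proteins. In MYC low cells they were Coq8a (-0.87), Coq4 (-0.58) and Coq8b (0.50). Between the labels 13 were higher and 7 lower in MYC high cells at 10 µM, led by Fntb (1.04), Trit1 (0.88) and Coq8a (0.80). At 200 µM 10 were higher and 10 lower, among them Trit1 (1.51) and Coq3 (-0.98). Of 15 tested genes of sterol transfer, storage and turnover, 6 were higher and 4 lower at 10 µM in MYC high cells, and 4 were higher and 6 lower in MYC low cells, with medians of 0.09 and 0.01. Both counts of higher genes lay close to the share over all genes. Gramd1c (2.72), a carrier of sterol from the plasma membrane, Lipa (1.52), the lysosomal lipase that frees cholesterol from its esters, and Osbpl11 (-1.03) led in MYC high cells. The genes in front were Gramd1c (0.67), Osbpl5 (0.54) and Osbpl8 (-0.50) in MYC low cells. Between the labels 2 were higher and 9 lower in MYC high cells at 10 µM, led by Osbpl5 (-1.09), Osbpl1a (-0.69) and Nceh1 (-0.59). At 200 µM none was higher (by adjusted or unadjusted limma p under 0.05, edgeR or DESeq2) and 12 were lower, led by Gramd1c (-2.12), Lipa (-1.73) and Osbpl5 (-1).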

How the data were processed

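Polyadenylated RNA of 11 libraries was measured, in 4 groups of 3, 3, 2 and 3. Per the labels' protocols, a Qiagen kit and NEBNext Ultra II reagents were used. Per the submitters' processing notes, FastQC, fastp, STAR, SAMtools, HTSeq, DESeq2 and the GRCm39 build were used, and no source used here gives their versions or the strand setting. The deposited signal is a normalized count: the authors divided gene counts by size factors, and 100% of values above 0 came back as whole reads within 0.001.

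Genes with a mean of at least 10 normalized counts (12909) were fitted with limma 3.58.1 (R 4.3.3, trend) on log2(normalized count + 1), with 1 mean per group over all 11 libraries, 7 residual degrees of freedom and Benjamini-Hochberg adjustment at 0.05 within each comparison. Fold changes are on this scale and understate those of low genes. The recovered reads were also tested with edgeR 4.0.16 and DESeq2 1.42.0. Symbols and gene overlaps came from GENCODE M21, which paired 52083 of the 55416 identifiers with a symbol. The 30 genes, the related lists and the tests were chosen with earlier results of these data known. Named related genes are the 3 with the largest absolute log2 difference among those past the threshold in each comparison of media or labels, and some that met this rule are not reported here. MYC high replicate 1 at 200 µM was not analysed here, and the spread of that group is shared with the others. Of the 30 genes, 9 overlap exons on the opposite strand, 4 on the same strand, and 14 match another gene over 100 bases or more at 97% identity, overlaps included.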

Additional observations from a re-analysis of the deposited data

Results flagged for a closer look

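The methionine response, 10 against 200 µM, differed between MYC high and MYC low cells by the limma interaction test for 22 of the 30 genes, where 60.4% of all tested genes passed it in either direction. On the log2 scale, MYC high minus MYC low, the differences in the mevalonate arm were 0.69 for Acat2, 0.90 for Hmgcs1, 1.24 for Mvk, 1.26 for Pmvk and 2.53 for Fdps. In the sterol arm they were 1.43 for Fdft1, 0.78 for Sqle, 0.56 for Lss, 0.64 for Cyp51, 1.65 for Tm7sf2, 0.62 for Lbr, 0.60 for Msmo1, 1.54 for Nsdhl, -0.75 for Hsd17b7, 0.29 for Sc5d and 1.96 for Dhcr7. Among the genes that handle sterols they were 0.61 for Soat1, 0.26 for Npc1, 0.17 for Npc2, -2.03 for Abca1, -0.49 for Abcg1 and -0.49 for Osbp. No cause was tested.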

How the results depend on the processing

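The counts of genes called stayed within 1.5 times their values under the other pseudocounts, no filter, edgeR, DESeq2, the fit of the compared groups alone and each left-out library. The exception was the number of the 30 genes higher in MYC high cells at 200 µM, 9 as reported and 5 with every library scaled to an equal total. With each library left out in turn, the number of the 30 called was 21 to 24 for MYC at 200 µM, 23 for MYC at 10 µM, 23 to 24 for methionine in MYC high cells, 23 to 24 in MYC low cells and 21 to 23 for the difference of responses. No pairing by replicate number was seen. Correlations of deviations from group means lay between -0.049 and 0.026 for same-numbered libraries, and between -0.046 and 0.049 for the others. Groups of 2 or 3 libraries cannot show that no pairing exists. A replicate block called 22 of the 30 for MYC at 200 µM and 23 for MYC at 10 µM. Differences that changed sign had not passed the test. With equal totals these were MYC at 200 µM for Msmo1 (-0.07) and Dhdds (-0.04), MYC at 10 µM for Dhdds (-0.03), methionine in MYC high cells for Npc1 (0.03) and the difference of responses for Dhdds (0.01). With edgeR, Npc1 in MYC high cells and the difference of responses for Dhdds came to 0. With a library left out, the ranges were -0.11 to 0.06 for Sc5d, -0.03 to 0.12 for Dhdds, -0.33 to 0.02 for Pmvk and -0.01 to 0.04 for Msmo1 by MYC at 200 µM, and -0.02 to 0.08 for Dhdds at 10 µM. By methionine they were -0.05 to 0.03 for Npc1, -0.05 to 0.09 for Ggps1 and -0.05 to 0.36 for Pdss2 in MYC high cells, and -0.05 to 0.11 for Abca1 and -0.13 to 0.02 for Dhdds in MYC low cells. For the difference of responses they were -0.09 to 0.06 for Dhdds and -0.05 to 0.14 for Mvd. The cause was not tested. A group of 2 libraries, and Fdps at 4 and 6 reads in them, limit the precision at 200 µM in MYC high cells.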
